A study of Mus musculus with 8 samples.

Results

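Transglutaminases were examined in the epidermis of newborn mice lacking the nuclear receptor RORα in keratinocytes. The members are Tgm1, Tgm2, Tgm3 and Tgm5, found as the rows of the RSEM gene count table whose Ensembl identifier carries one of these symbols in the GENCODE mouse annotation. They are 4 of the 55416 genes in the table, and all 4 passed the filter on low counts. The study crossed Rora flox/flox mice with mice carrying K14-Cre, a recombinase driven by a keratin promoter of basal keratinocytes, to obtain RoraEKO mice, and 4 libraries labelled as epidermal Rora knockout, called RoraEKO here, stood against 4 labelled WT, called control here. All 8 were taken at postnatal day 4. The epidermis of the back was peeled from the dermis after a brief heat treatment, and polyA RNA was sequenced in read pairs. Which floxed or Cre alleles the control mice carried is not given in the sources used here. Replicates are named by the start of their titles, A1, B1, C1 and C6 for control and A3, B4, C2 and C3 for RoraEKO, and the study describes its samples as mice of each genotype. The study speaks of control littermates at this age, but the litter of each sequenced sample is not given in the sources used here, and p-values measure the spread between these samples.

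Transglutaminases are calcium-dependent enzymes that join a glutamine of one protein to a lysine of another through an isopeptide bond. In the outer epidermis they crosslink involucrin, loricrin, small proline-rich proteins and other precursors into the cornified envelope, the insoluble shell that replaces the plasma membrane of a dying keratinocyte. Tgm1 encodes the membrane-anchored keratinocyte enzyme, and its loss causes lamellar ichthyosis in people and a fatal barrier defect in newborn mice. Tgm3 encodes the epidermal enzyme of the granular layer and hair follicle, which is activated by proteolysis. Tgm5 encodes an enzyme of the upper epidermis whose loss causes acral peeling skin syndrome. Tgm2 encodes the widely expressed tissue enzyme, best known from endothelial cells, macrophages and fibroblasts.

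Tgm1 (ENSMUSG00000022218) spans chr14:55937466-55951383 of GRCm39 on the minus strand. The other members lie on chromosome 2, with Tgm5 (ENSMUSG00000053675) at chr2:120876592-120916322 on the minus strand, Tgm3 (ENSMUSG00000027401) at chr2:129854257-129892319 on the plus strand, and Tgm2 (ENSMUSG00000037820) at chr2:157958322-157988359 on the minus strand. Their coding sequences share the stretch around the codon of the catalytic cysteine, which attacks the glutamine of the substrate. The stretches are shown because they are what makes these genes 1 enzyme family while leaving their reads separable. Each has 51 bases from the GENCODE canonical transcript, 5′ to 3′, with the cysteine codon in capitals.
Tgm1: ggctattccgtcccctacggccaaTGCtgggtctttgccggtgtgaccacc
Tgm3: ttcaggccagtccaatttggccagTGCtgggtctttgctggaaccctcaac
Tgm5: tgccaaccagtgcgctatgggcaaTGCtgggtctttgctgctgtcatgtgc
Tgm2: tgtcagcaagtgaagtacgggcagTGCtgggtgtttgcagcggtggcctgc
The codon lies at chr14:55946879-55946881 in exon 7 of 15 of Tgm1, at chr2:129871692-129871694 in exon 6 of 13 of Tgm3, at chr2:120901241-120901243 in exon 6 of 13 of Tgm5, and at chr2:157973279-157973281 in exon 6 of 13 of Tgm2. Base identity over the 51 bases ran from 56.9% between Tgm2 and Tgm3 to 70.6% between Tgm2 and Tgm5. Tgm1 and Tgm5 were identical at 35 of 51 bases. No run of 31 bases in the canonical transcripts of the members was shared between family genes, and 26 of the 4117 such runs in Tgm3 (0.632%) occurred in genes outside the family. All counts of the 4 genes were whole numbers in the 8 libraries.

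Library totals ran from 17286903 to 26705533 counts. The quasi-likelihood test of edgeR was run on 13147 genes, and a gene is called here when its adjusted p (Benjamini-Hochberg) is under 0.05 and its fold change over 1.5. By these cutoffs 302 genes were higher in RoraEKO and 423 lower. Rora mRNA did not separate the genotypes, at 212 ± 66.6 CPM (SD, n = 4) in control and 196 ± 34.6 in RoraEKO (log2 fold change -0.11, edgeR adjusted p = 0.877). CPM are counts per 1000000 with TMM scaling. Counts per gene do not resolve exons, so the genotypes rest on the labels. Control C1 and C6 had 415.8 and 527 CPM of Xist and no counts of the Y-linked Ddx3y, whereas the other 6 libraries had at most 0.0546 CPM of Xist and between 15.7 and 24.1 CPM of Ddx3y. Sex and genotype are therefore partly mixed, and results without control C1 and C6 are given beside the members.

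Tgm5 was the 1 member called, higher in RoraEKO, against 2.30% of all genes tested called in that direction, and 0 members were lower by edgeR, limma-trend or DESeq2 or at an unadjusted edgeR p under 0.05, against 3.22% of all genes called lower by edgeR. Control libraries A1, B1, C1 and C6 had 38.0, 34.6, 26.65 and 41.5 CPM of Tgm5. RoraEKO libraries A3, B4, C2 and C3 had 59.9, 69.0, 64.2 and 56.4 CPM. Every RoraEKO library stood above every control library, with control C1 the lowest of all and RoraEKO B4 the highest. The means were 35.2 ± 6.35 CPM and 62.4 ± 5.44 CPM (SD, n = 4 each). The log2 fold change was 0.83 with a standard error of 0.15 and a 95% limma interval of 0.51 to 1.17 (1.77-fold, edgeR adjusted p = 0.0098). In bulk epidermis, a change in how many cells of a type are present and a change in RNA per cell cannot be told apart. When Xist (as log2 CPM) was added as a covariate, the log2 fold change was 0.78 with an edgeR adjusted p of 0.0624, and without control C1 and C6 it was 0.83 with an edgeR adjusted p of 0.0316. Leaving out any 1 library kept the call, with log2 fold changes of 0.71 to 0.94.

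Tgm1 was higher in each RoraEKO library but was not called. Control A1, B1, C1 and C6 had 365, 299, 219.8 and 314 CPM of Tgm1. RoraEKO A3, B4, C2 and C3 had 417, 580.1, 511 and 439.9 CPM. The genotypes did not overlap, and the gap was narrowest between control A1 and RoraEKO A3, which share the letter A in their labels. The means were 299 ± 60.1 CPM and 487 ± 73.7 CPM (SD, n = 4 each). The log2 fold change was 0.70 with a standard error of 0.19 and a 95% limma interval of 0.31 to 1.12 (1.63-fold, edgeR adjusted p = 0.0578).

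The call on Tgm1 turned on the fit. It was past the cutoffs with RLE size factors (edgeR adjusted p = 0.0491), with limma-trend (0.0479), with the likelihood ratio test of edgeR (0.0156) and with DESeq2 (0.00326). These fits called 2.46%, 2.36%, 3.29% and 3.64% of all genes higher. It was also past them in the edgeR fit without control A1, which called 2.90% of genes higher, with a log2 fold change of 0.81 and an adjusted p of 0.0309. With the label letter as a replicate block it was past them too (0.71, edgeR adjusted p = 0.0424). That fit called 420 of 13147 genes higher, and what the letter stands for is not given. Without control C1 and C6 the log2 fold change was 0.61 (edgeR adjusted p = 0.211), and with the Xist covariate it was 0.56 (edgeR adjusted p = 0.236), in fits that called 1.08% and 1.34% of all genes higher. In all 21 alternative settings, which include other cutoffs on the main fit, the estimate was positive. Its size ranged from 0.56 to 0.83.

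Tgm3 was less clearly separated. Its values were 299.9, 299.6, 249 and 156.5 CPM in control A1, B1, C1 and C6. In RoraEKO A3, B4, C2 and C3 they were 403, 367, 310.1 and 306 CPM. The lowest RoraEKO library lay just above the highest control library, and control C6 stood well below the rest of its group. The means were 251 ± 67.5 CPM and 346 ± 46.9 CPM (SD, n = 4 each). The log2 fold change was 0.46 with a standard error of 0.24 and a 95% limma interval of 0.02 to 0.98 (1.38-fold, edgeR adjusted p = 0.294). None of the 21 alternative settings called it, with adjusted p between 0.105 and 0.662. They include DESeq2, edgeR fits with other settings and other cutoffs on the main fit. Without control C1 and C6 the log2 fold change was 0.26 (edgeR adjusted p = 0.528), and with the Xist covariate it was 0.20 (edgeR adjusted p = 0.662).

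Genotypes that did not overlap, with RoraEKO above control, were found for 3 of the 4 members and for 5.40% of all genes tested. The counts depended on the scaling. With library size alone, control reached 309.5 CPM of Tgm3 while the lowest RoraEKO library had 279.7, so Tgm3 overlapped. On the per-length scale described below, Tgm1 overlapped as well, with control up to 197 and RoraEKO from 179. Tgm5 did not overlap on these 3 scales or with RLE size factors. The share of all genes without overlap, RoraEKO above control, moved with the scale too, at 6.14% with RLE size factors, 3.27% with library size alone and 2.47% per length.

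Tgm2 was scarce in this tissue. Its counts were 121, 18, 13 and 75 in control A1, B1, C1 and C6, or 4.61, 0.984, 0.615 and 2.81 CPM. In RoraEKO A3, B4, C2 and C3 the counts were 75, 49, 27 and 58, or 4.89, 2.01, 1.30 and 2.90 CPM. The genotypes overlapped over almost their whole range, and libraries with the letter A were the highest in each. The log2 fold change was 0.27 with a standard error of 0.74 and a 95% limma interval of -0.85 to 1.88 (edgeR adjusted p = 0.8945), an interval that holds sizeable changes in both directions. The sign turned negative without control C1 (-0.04), without RoraEKO A3 (-0.08) and with the Xist covariate (-0.04). Without control C1 and C6 it was 0.02 (edgeR adjusted p = 0.991). The opposite strand of its 3′ side is covered by Rprd1b, which had 236 to 629 counts, and the strand setting of the counting is not given in the sources used here.

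Cell types in which Tgm2 is known were scarce. The summed level of 8 endothelial markers was 2.25 to 4.19 CPM in control and 2.15 to 5.59 CPM in RoraEKO, and 8 macrophage markers summed to 8.91 to 26.9 CPM and 13.4 to 18.6 CPM. The 8 dermal fibroblast markers summed to 15.8 to 20.4 CPM in control and 27.7 to 43.7 CPM in RoraEKO, without overlap. Most of that sum was Postn, the matrix protein periostin (14.1 ± 3.72 to 30.4 ± 7.93 CPM, SD, n = 4, log2 fold change 1.11, edgeR adjusted p = 0.0236). Postn was the 1 marker called of the 4 tested in this list. Col1a1, Col1a2 and Col3a1 overlapped between the genotypes (edgeR adjusted p = 0.693, 0.998 and 0.717). No marker of the 3 lists was at 0 in all libraries. Sebocyte markers, 8 genes, summed to 1552 to 2284 CPM in control and 2386 to 5949 CPM in RoraEKO. Most of this was Fabp5, a fatty acid binding protein, and the other 7 genes summed to 115 to 443 CPM in control and 80.3 to 218.5 CPM in RoraEKO, with overlap. The part of these cells in the Tgm2 values was not tested.

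**Figure D1:**
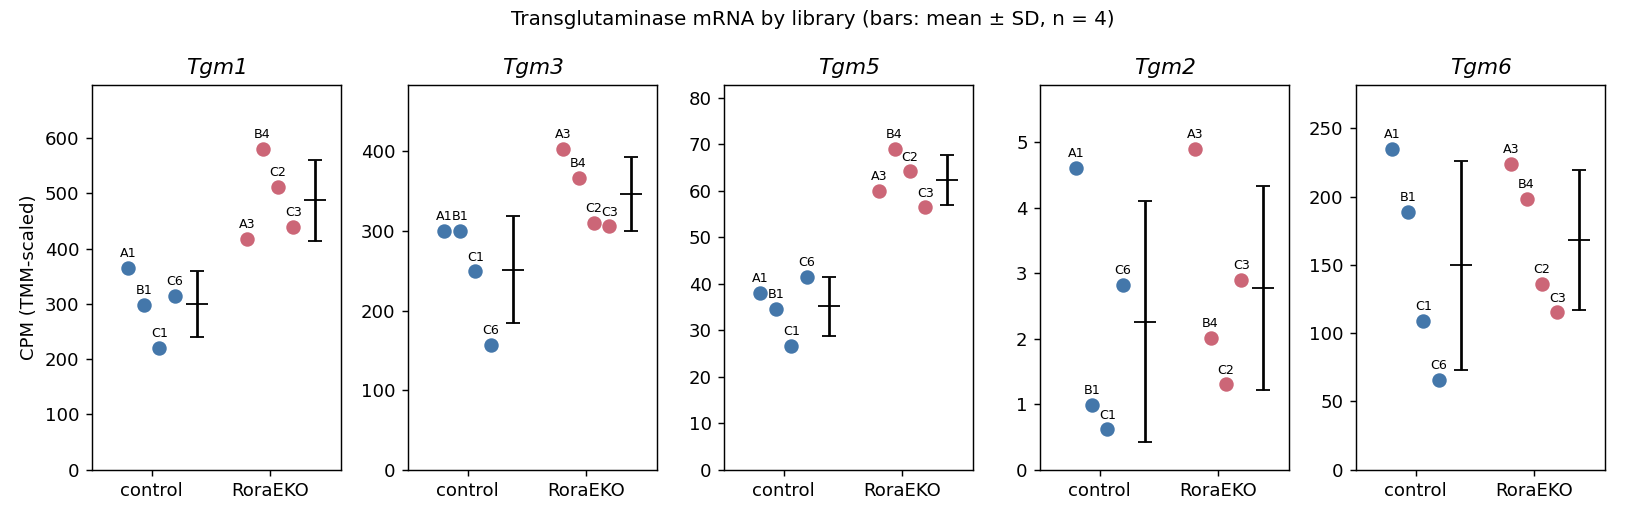
TMM-scaled CPM (counts per 1000000, linear axis from 0) of Tgm1, Tgm3, Tgm5, Tgm2 and Tgm6 in the 4 control (blue) and 4 RoraEKO (red) libraries, each point 1 library with its replicate name, and bars giving mean ± SD. Tgm5 runs from 26.65 to 41.5 CPM in control and from 56.4 to 69.0 in RoraEKO, whereas Tgm2 and Tgm6 overlap.

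**Figure D2:**
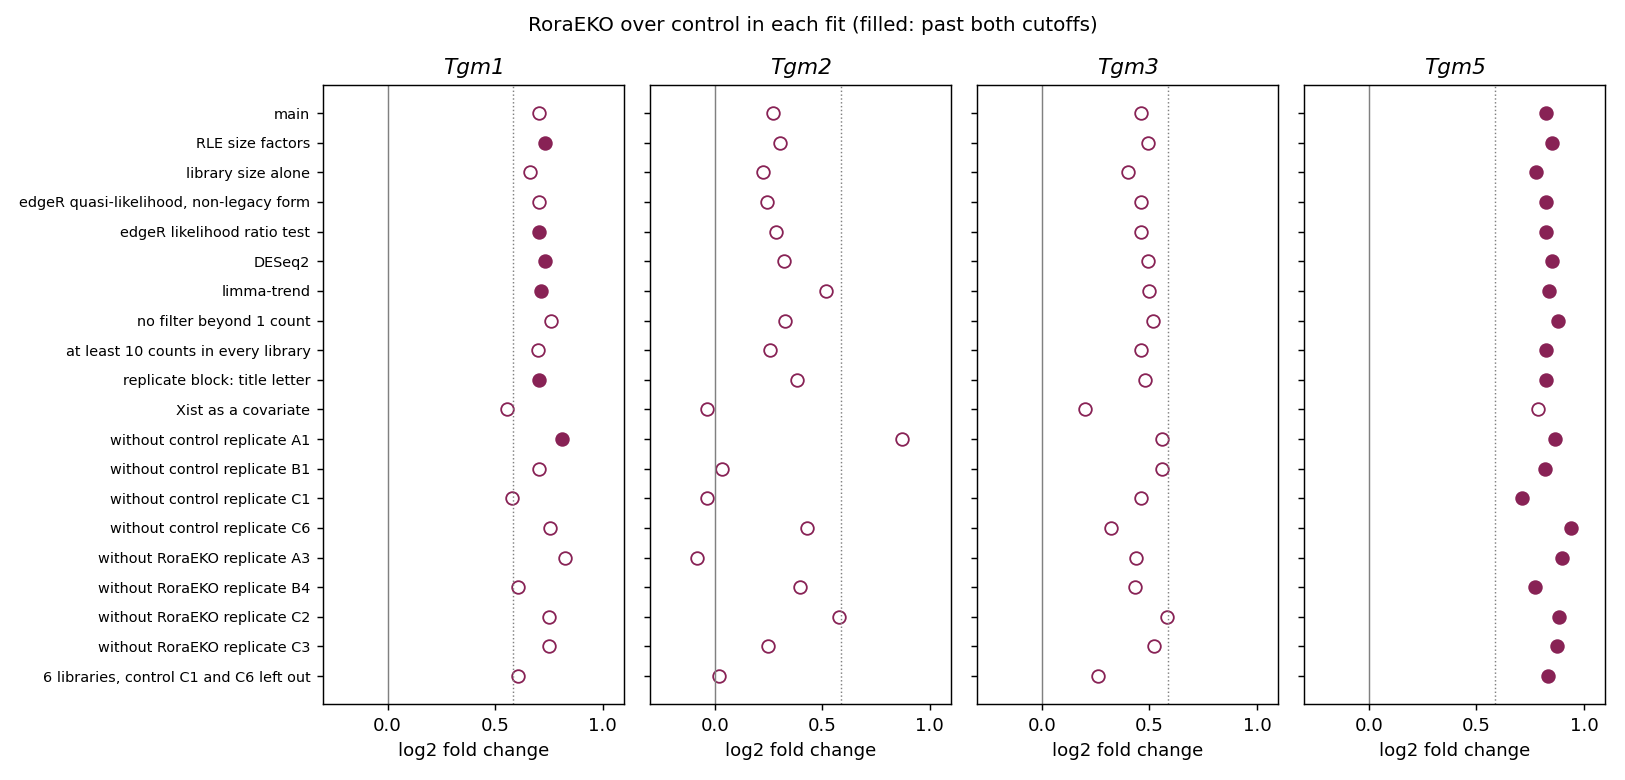
Log2 fold change, RoraEKO over control, of the 4 members (1 panel each) in 20 fits named on the vertical axis, with filled points past both cutoffs, a solid line at 0 and a dotted line at a fold change of 1.5. Tgm5 is filled in all fits but the one with Xist as a covariate, Tgm1 in 6, and Tgm2 and Tgm3 in none.

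Levels were compared between the genes per length, as counts per kilobase of merged exons scaled to sum to 1000000 in each library. This scale depends on the lengths of the transcripts that make up each library, and it is used here for the order of the genes. The order Tgm1, Tgm3, Tgm5 and Tgm2 held in each of the 8 libraries. On the per-length scale the control means were 162 for Tgm1, 111.5 for Tgm3, 20.4 for Tgm5 and 0.853 for Tgm2, and the RoraEKO means were 264, 149.7, 35.7 and 1.01. Tgm1 and Tgm3 were closest in control C1, where Tgm1 stood at 1.09 times Tgm3, and furthest apart in control C6 at 2.47 times. Their ranges over libraries overlapped, from 120.5 to 197 for Tgm1 and from 66.1 to 137 for Tgm3 in control. Tgm5 lay clear below Tgm3, which was 2.87 to 7.11 times as high in control and 3.68 to 5.12 times in RoraEKO.

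Within a library, a ratio of per-length levels does not depend on the scaling. The ratio of Tgm1 to Tgm5 was 8.99, 8.09, 7.73 and 7.10 in control A1, B1, C1 and C6, and 6.53, 7.88, 7.46 and 7.31 in RoraEKO A3, B4, C2 and C3. It varied less than either gene did across the 8 libraries, a spread that for each gene includes the genotype difference. The genotypes overlapped in this ratio. The ratio of Tgm3 to Tgm5 was 6.0, 6.59, 7.11 and 2.87 in the control libraries and 5.12, 4.05, 3.68 and 4.12 in the RoraEKO libraries. Control A1, B1 and C1 lay above every RoraEKO library in this ratio, and control C6, the library with the lowest Tgm3, lay below them all. Pearson's r of log2 CPM over the 8 libraries, in which the genotype difference is shared, was 0.961 between Tgm1 and Tgm5, 0.552 between Tgm1 and Tgm3 and 0.507 between Tgm3 and Tgm5.

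**Figure D3:**
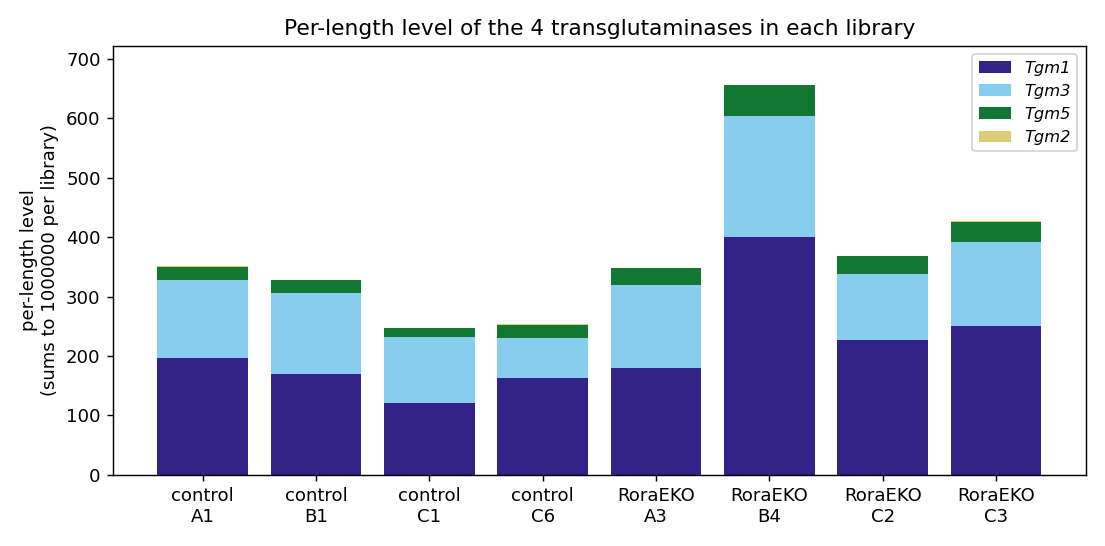
Stacked per-length levels of Tgm1, Tgm3, Tgm5 and Tgm2 in each library (counts per kilobase of merged exons, scaled to 1000000 per library, linear axis from 0). Tgm1 is the largest part and Tgm3 the second in every library, and Tgm2 is too low to be seen.

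The genes most like each member across the 8 libraries were taken from all protein-coding genes with a mean of at least 10 CPM. For Tgm1 they were Lgalsl (r = 0.978), Crybg2 (0.976) and Tfip11 (0.975), and for Tgm5 they were Ptk6 (0.980), Klk13 (0.968) and Dlx5 (0.967). For Tgm3 they were Foxp4 (0.982), Nol12 (0.967) and Mien1 (0.940), and for Tgm2 they were Pnpla5 (0.963), Cidea (0.957) and Gtf2ird1 (0.951). These are the highest of 6794 correlations (6795 for Tgm2) over 8 points and are given as a description.

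Libraries with the same letter in their labels were also set side by side, although what the letter stands for is not given. The log2 difference of RoraEKO from control in Tgm5 was 0.65 for letter A, 0.99 for B and 0.85 for C. In Tgm1 it was 0.19, 0.96 and 0.85, and in Tgm3 it was 0.43, 0.29 and 0.64. In Tgm2 it was 0.09, 0.97 and 0.51. All 4 differences were positive within every letter. Letters A and B hold 1 library of each genotype, so no test was made within them.

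Of the other family genes, only Tgm6 passed the filter. It lies 62016 bases after Tgm3 on the same strand, at chr2:129954336-129996152, and in control A1, B1, C1 and C6 it had 235, 189, 109 and 65.5 CPM. In RoraEKO A3, B4, C2 and C3 it had 224, 198.5, 136 and 115 CPM. The genotypes overlapped (log2 fold change 0.17, standard error 0.47, edgeR adjusted p = 0.888). Its pattern followed that of Tgm3 (r = 0.858) more than those of Tgm1 (0.356) and Tgm5 (0.231). Between Tgm3 and Tgm6, 78.4% of the bases around the active-site codon were identical, the highest share among the members and Tgm6.

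Tgm3 and Tgm6 were also read beside the hair follicle, since the inner root sheath is a site of transglutaminase crosslinking of trichohyalin. The summed level of 10 inner root sheath markers was 49980, 25590, 8768 and 8012 CPM in control A1, B1, C1 and C6, and 32920, 32300, 14940 and 15770 CPM in RoraEKO A3, B4, C2 and C3. Tgm6 was highest in control A1 and lowest in control C6, as the sum was, and the 8 libraries fell in the same order by both apart from RoraEKO C2 and C3. Tgm3 was lowest in control C1 and C6 and in RoraEKO C2 and C3 within each genotype, the libraries with the lowest sums. Tgm5 was not ordered this way, with control C6 the highest of its group. Of the 10 sheath markers 0 were called higher and 1, Gata3, lower in RoraEKO by edgeR, limma-trend and DESeq2 alike. The 12 hair shaft markers summed to 3007 to 11700 CPM in control and 5579 to 10100 CPM in RoraEKO, and 0 of them were called or had an unadjusted edgeR p under 0.05. The part of the hair follicle in the Tgm3 values was not tested.

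**Figure D4:**
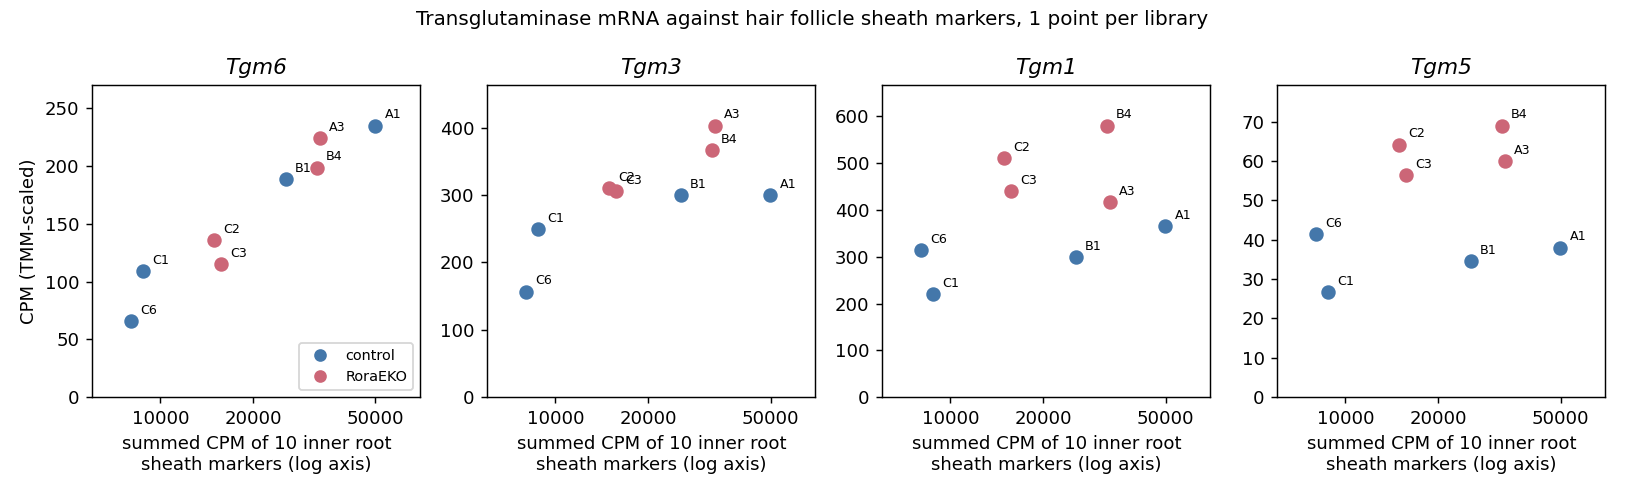
CPM of Tgm6, Tgm3, Tgm1 and Tgm5 (linear vertical axes) against the summed CPM of 10 inner root sheath markers (log horizontal axis), 1 point per library, control in blue and RoraEKO in red. Tgm6 climbs with the marker sum from control C6 to control A1, and its genotypes overlap. All RoraEKO libraries lie above all control libraries for Tgm3, Tgm1 and Tgm5.

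Tgm4, Tgm7, F13a1 (the coagulation factor XIII A chain) and Epb42 fell under the filter, with 0 to 15 counts per library apart from Epb42. Epb42, the erythrocyte membrane protein 4.2, is a family member without the catalytic cysteine and lies 9038 bases from Tgm5 on the same strand. It had 0, 1, 4 and 2 counts in control A1, B1, C1 and C6 and 8, 13, 21 and 9 counts in RoraEKO A3, B4, C2 and C3. The genotypes did not overlap, and in a fit without the filter its log2 fold change was 2.98 (edgeR adjusted p = 0.0419), resting on these few counts. Epb42 also passed the filter in 5 of the fits with libraries left out. It was called without control C1 (3.73, edgeR adjusted p = 0.0274) but not without control B1 (2.84, 0.110), RoraEKO A3 (3.07, 0.0513), RoraEKO C3 (3.08, 0.0645) or control C1 and C6 (4.50, 0.0645). Tgm7, 7723 bases from Tgm5 on its other side, had no such difference between genotypes.

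Promoter sequence was searched because RORα binds the half-site AGGTCA as a monomer, usually after A and T bases. The promoters were those of RefSeq on GRCm38.p6, and 250 bases before each start were read on both strands. Tgm1 had 2 promoters in the table, Tgm3 and Tgm5 1 each, and Tgm2 none. AGGTCA was found in 14.0% of 32851 promoters, in 1 of the 2 of Tgm1 (chr14:55713657-55713686, minus strand, 182 bases before the start) and at 2 places in Tgm3 (chr2:130012182-130012211 and chr2:130012241-130012270, plus strand, 146 and 87 bases before it). The matches are shown in 30 bases of the gene's own strand, with the half-site in capitals, where it reads as its reverse complement.
Tgm1: ccctccttagcaTGACCTcagttcctagaa
Tgm3, distal: gcataagcaggaTGACCTcccattgggtga
Tgm3, proximal: gcactacaggaaTGACCTggtgcctcgccc
Tgm5, the member that was called, had no match to AGGTCA. Outside the members, AGGTCA lay 211 bases before the start in a promoter of Tgm6 and 13 bases before that of Tgm7. The other motifs searched were TAGGTCA (2.23% of promoters), the AP-1 site TGANTCA (6.75%) and the Grainyhead site AACNGGTT (1.79%). TAGGTCA contains AGGTCA, and the promoters of Tgm1, Tgm3 and Tgm5 held none of these other motifs. A match is a run of letters and not a measured site.

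The partners of the enzymes were read as lists chosen with results of these data known. Their substrates comprised 62 genes in 5 lists, of which 51 were tested. By the quasi-likelihood test 23 were called higher in RoraEKO, 1 was called lower and 27 were not called. Over all genes tested, 2.30% were called higher and 3.22% lower. The early scaffold had 0 of 4 called by edgeR, limma-trend or DESeq2 and 0 at an unadjusted edgeR p under 0.05, among them Ivl, encoding involucrin (1121 ± 225 CPM in control and 847 ± 113 in RoraEKO, SD, n = 4, edgeR adjusted p = 0.318). The late cornified envelope genes had 16 of 19 called higher, with a median log2 fold change of 1.41 against -0.04 over all genes, and the small proline-rich genes 5 of 11, with a median of 2.85. Lce1m went the other way, from 846 ± 129 to 425 ± 168 CPM (SD, n = 4, log2 fold change -0.99, edgeR adjusted p = 0.0578), without overlap, and was the 1 gene of its list called lower by DESeq2, limma-trend and the likelihood ratio test, which called 18, 14 and 18 of the list higher. The late cornified envelope count fell to 10 without RoraEKO B4, 5 without control B1 and 6 without control C1. It was 4 without control C1 and C6 and 5 with the Xist covariate, with medians of 1.17 to 1.42 in these fits. Over all genes, the number called higher fell from 302 to 248 without RoraEKO B4, 174 without control B1 and 214 without control C1. It was 147 without control C1 and C6 and 176 with the Xist covariate, of 13147 to 13652 genes tested. Without control C6 it was 271, and without RoraEKO A3 367. The small proline-rich count was 3 without control B1, C1 or C6, without both C1 and C6 and with the Xist covariate, and 7 without RoraEKO A3. RoraEKO B4 stood apart in that list, with 633 CPM of Sprr1b against 128 to 150.5 in the other RoraEKO libraries and 86.8 CPM of Sprr2d against 6.54 to 8.38, and the median without it was 1.92, with 5 called. Both families hold near-identical copies among which reads may be split. Among reinforcement proteins, 1 of 13 was called higher by the quasi-likelihood test, Rptn (repetin), and 1 lower, Hrnr (hornerin). DESeq2 called Krt1 and Krt10 higher too, and the likelihood ratio test Krt10. Loricrin was at 4233 ± 411 CPM in control and 3673 ± 801 in RoraEKO (SD, n = 4, edgeR adjusted p = 0.709). Of 4 cystatin substrates 1 was called by the quasi-likelihood test and 2, with Stfa3 added, by DESeq2 and the likelihood ratio test. The first was Stfa2, a stefin (90.9 ± 2.95 to 553 ± 79.8 CPM, SD, n = 4, log2 fold change 2.61, edgeR adjusted p = 2.345e-05).

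Among proteases and inhibitors tied to transglutaminase activation, 0 of 10 were called by the quasi-likelihood test, and the median log2 fold change was 0.06. At an unadjusted edgeR p under 0.05, and also by DESeq2, limma-trend and the likelihood ratio test, 1 was higher, Capn2, a calpain subunit (10.8 ± 3.92 to 20.2 ± 2.77 CPM, SD, n = 4, log2 fold change 0.91, edgeR adjusted p = 0.061). Cst6, the cystatin M/E that restrains the cathepsins acting on transglutaminase 3, was at 404 ± 125 CPM in control and 535 ± 87.1 in RoraEKO (SD, n = 4, log2 fold change 0.40, edgeR adjusted p = 0.399). Ctsl, the protease cathepsin L, had a log2 fold change of 0.32 (edgeR adjusted p = 0.868), Ctsd -0.13 (0.851) and Ctss 0.10 (0.956). Of 14 genes of congenital ichthyosis other than Tgm1, 0 were called by the quasi-likelihood test, 2 (Nipal4 and Casp14) were higher at an unadjusted p under 0.05, and 1, Casp14, a caspase of the granular layer, was called by DESeq2 and the likelihood ratio test. Alox12b was not called, a lipoxygenase that acts on ceramides of the lipid envelope (0.31, edgeR adjusted p = 0.512). Of 14 transcription factors of differentiation, 0 were called higher by edgeR or DESeq2 (2, Cebpa and Hopx, at an unadjusted edgeR p under 0.05) and 1, Gata3, lower (126 ± 36.3 to 74.3 ± 8.64 CPM, SD, n = 4, log2 fold change -0.77, edgeR adjusted p = 0.0492). Grhl3 (0.19, edgeR adjusted p = 0.854) and Klf4 (0.27, 0.448) were not called.

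Markers of the epidermal layers stood beside the members as follows. The summed level of 7 spinous markers, mostly Krt1 and Krt10, was 45060 to 71040 CPM in control and 86430 to 107700 CPM in RoraEKO without overlap. The other 5 summed to 7708 to 10690 CPM in control and 6984 to 9167 CPM in RoraEKO, with overlap. By the quasi-likelihood test 0 of the 7 spinous markers were called, 2 (Krt10 and Dsg1b) had an unadjusted p under 0.05, and DESeq2 called 2, Krt1 and Krt10, higher and the likelihood ratio test 1, Krt10. The 9 granular markers summed to 16440 to 24250 CPM in control and 17170 to 24350 CPM in RoraEKO, with 0 called by the quasi-likelihood test and 1, Casp14, by DESeq2 and the likelihood ratio test. The 7 basal markers summed to 283 to 633 CPM in control and 304 to 413 CPM in RoraEKO A3, C2 and C3, while RoraEKO B4 stood apart at 1252 CPM, with 0 called by either tool and 1, Krt15, lower at an unadjusted edgeR p under 0.05. Every basal, spinous and granular marker had at least 1 CPM in each library, as did all 12 hair shaft and all 8 sebocyte markers and 9 of the 10 inner root sheath markers. The part of the layers in the member values was not tested.

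**Figure D5:**
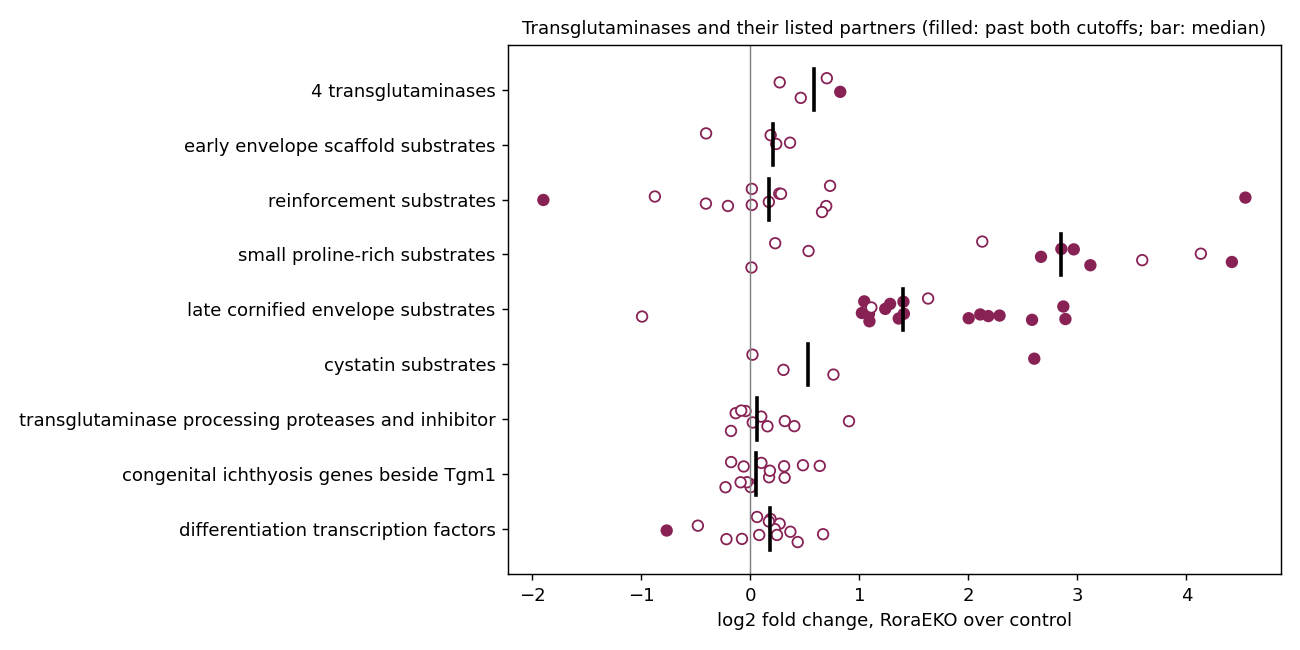
Log2 fold change, RoraEKO over control, of each tested gene (1 point) in the 4 transglutaminases and 8 lists of partners, with filled points past both cutoffs and a bar at each list's median. The late cornified envelope and small proline-rich lists lie to the right, with medians of 1.41 and 2.85, while proteases, ichthyosis genes and transcription factors centre near 0.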

How the data were processed

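RNA was measured in 8 libraries of dorsal epidermis, 4 per genotype. After Skewer trimming, the authors aligned the read pairs to GRCm39 by STAR 2.5.3a, and they deposited the expected counts of RSEM per Ensembl gene, unnormalized. The annotation release they used is not given in the sources used here. The header gives no name to the identifier column, and its 8 sample titles were applied to the value columns in order. Symbols came from GENCODE release 39, which held 54749 of the 55416 identifiers.

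Expected counts were rounded (2.99% of values were not whole). Genes were filtered with filterByExpr, scaled by TMM and compared in edgeR 4.0.16 (quasi-likelihood, legacy form, R 4.3.3) on genotype alone, with Benjamini-Hochberg adjustment over 13147 genes. Standard errors belong to the difference between genotype means of log2 CPM with a prior count of 2, and intervals came from limma 3.58.1. A floor of 3 counts was 0.113 to 0.196 CPM, which covers counting error only. DESeq2 1.42.0 and the other alternatives are compared below. The scripts were tested on simulated data. The members, the lists and the rule for named genes were chosen with earlier results of these data known. That rule took all transglutaminase genes, Rora, Xist, Ddx3y, listed partners, markers and the 3 genes most like each member, and not all of them are printed. Plots were drawn with matplotlib 3.10.9.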

Additional observations from a re-analysis of the deposited data

How the results depend on the processing

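The genes called higher numbered 302 by the quasi-likelihood test of edgeR, 478 with DESeq2, 176 with the Xist covariate, 147 without control C1 and C6, 131 at an adjusted p of 0.01, and 174 to 383 with 1 library left out, lowest without control B1 and below 200 also without RoraEKO C3 (188). Genes called lower numbered 423, and 167 without control C1 and C6, 231 at an adjusted p of 0.01 and 283 to 513 with 1 library left out. The cause of these differences was not tested.

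Tgm1, not called at a log2 fold change of 0.70, was called with RLE size factors (0.73), the likelihood ratio test of edgeR (0.70), DESeq2 (0.73), limma-trend (0.71) and without control A1, within a range of 0.58 to 0.83 with 1 library left out. Tgm5 was called in 20 of 21 alternatives, at 0.71 to 0.94 with 1 library left out, and was not called with the Xist covariate (0.78). Tgm2, at 0.27, was -0.0352 with the Xist covariate, -0.0372 without control C1, -0.0805 without RoraEKO A3 and up to 0.87 with 1 library left out, and Tgm3 was positive in all 21, at 0.32 to 0.58 with 1 library left out and lowest with the Xist covariate (0.20). Deviations from the genotype means were correlated between control and RoraEKO libraries. Pairs with the same title letter gave 0.483 (A1 and A3), 0.0498 (B1 and B4) and 0.131 to 0.436 (letter C). Pairs with different letters gave -0.517 to 0.282. Same-letter values were all positive, but what the letter stands for is not given. With the title letter as a replicate block, 420 genes were higher and 579 lower, and Tgm1 was called (0.71, edgeR adjusted p = 0.0424). The few counts of Tgm2 and Epb42 limit what can be said of them.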
